A study of Mus musculus with 82 samples.

Results

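Matrix metalloproteases and their inhibitors were followed in mouse brain after stroke through 10 genes: the 4 tissue inhibitors of metalloproteases Timp1, Timp2, Timp3 and Timp4, the matrix metalloproteases Mmp2, Mmp14 and Mmp16, and the proteases Adamts1, Adamts4 and Adamts9. These 10 of the 48795 gene IDs in the count table were taken by name. The study profiled laser-captured cortex and white matter, each from 5 zones of tissue after stroke, numbered 1 to 5, and from uninjured mice. For each sample, RNA bound to immunoprecipitated ribosomes (IP) was sequenced; for part of the cohorts the cleared lysate (input) was sequenced too. The 82 libraries fall into 18 groups. There are 5 IP libraries for each of zones 1 to 5 and for uninjured tissue in each region, 5 uninjured input libraries per region, and 3 IP and 3 input libraries per region of a separate stroke cohort in which zones 1 to 3 form 1 sample. All mice were perfused with 0.5% paraformaldehyde before dissection. The title calls the IP libraries enriched for astrocytes; the sources used here name no strain, age, sex, time after stroke, stroke method, distance spanned by a zone, or allele or promoter that tags the ribosomes. No label ties a library to an animal, so each p-value measures only the spread between libraries, which may be technical.

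Matrix metalloproteases are zinc enzymes that cut extracellular matrix and cell-surface proteins. Most are secreted as inactive precursors and are held in check by the TIMP proteins, which block the active site. In the brain, aggrecan, brevican and other chondroitin sulfate proteoglycans form much of the matrix around neurons, and several ADAMTS proteases cut them. After stroke, metalloproteases are best known for opening the blood-brain barrier and for remodelling the matrix around the lesion.

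Depth was limited and uneven. Total counts per library lay between 2518604 and 28245109, but 67.3% to 94.3% of them belonged to 6 genes (the mitochondrial ribosomal RNAs mt-Rnr1 and mt-Rnr2, and Gm42418, CT010467.1, Gm23935 and Lars2). Levels are therefore CPM, that is, counts per 1000000 of the counts outside those genes, which numbered 389889 to 5708700 per library. A gene with 0 counts in a library could have had up to 3 counts, which is 0.526 to 7.69 CPM depending on the library, with counting error alone considered. Summed over all 82 libraries, Timp2 had 55837 counts, Timp3 28526, Adamts4 18740, Mmp16 10477, Timp4 7332, Adamts1 4782 and Adamts9 3214. Mmp14 had 1722 counts, Mmp2 862 and Timp1 775, so these rarest members often rest on a few reads. Before the results, 5 IP libraries stand apart. Cortex zone 1 replicate 1 and white matter zone 1 replicate 5 had under 1000000 counts outside the 6 genes, and white matter zone 1 replicate 1, zone 3 replicate 1 and zone 5 replicate 3 had under 10000 detected genes. The summed level of 12 astrocyte markers was 5034 ± 1617 CPM in cortex uninjured IP against 2834 ± 774 CPM in input (SD, n = 5 each, 2-sided exact permutation test, p = 0.00794), with 3 of the 12 past the threshold. In edgeR that comparison called 25.3% of all 11280 genes tested in either direction, close to the share of these markers. In white matter the sum was 6514 ± 1149 CPM in uninjured IP against 5301 ± 392 CPM in input (SD, n = 5 each, exact permutation test, p = 0.0952). The IP libraries also held RNA of other cells, since 9 neuron markers summed to 11890 ± 2153 CPM in cortex uninjured IP and 8 oligodendrocyte markers to 44260 ± 9203 CPM in white matter uninjured IP (SD, n = 5 each).

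All 10 genes are protein-coding in the GENCODE annotation of GRCm38, the build named in the submitters' processing notes. Of the inhibitors, Timp1 lies at chrX:20870166-20874735 (plus strand), Timp2 at chr11:118301069-118355740 (minus strand), Timp3 at chr10:86300372-86349506 (plus strand) and Timp4 at chr6:115241892-115252205 (minus strand). Mmp2 lies at chr8:92827291-92853420 (plus strand), Mmp14 at chr14:54431612-54445364 (plus strand) and Mmp16 at chr4:17852893-18119145 (plus strand). Adamts1 lies at chr16:85793827-85803113 (minus strand), Adamts4 at chr1:171250421-171260637 (plus strand) and Adamts9 at chr6:92772699-92943492 (minus strand). Timp1, Timp3 and Timp4 each sit inside a synapsin gene on the opposite strand, Syn1, Syn3 and Syn2 in that order, with 0, 1733 and 90 shared exon bases. Adamts9 shares 1381 exon bases with A730049H05Rik and 424 with Gm15737, also on the opposite strand. Whether strand entered the counting is not given in the sources used here, so reads from such shared bases cannot be told apart.

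Levels of different genes were compared per kilobase of exon. In uninjured cortex IP libraries the inhibitors led. Timp2, an inhibitor that also takes part in activating pro-MMP2 at the cell surface, had 48.5 ± 3.74 CPM per kb (SD, n = 5). Timp3, which is bound to the matrix and inhibits MMPs, ADAMTS proteases and ADAM17, had 9.63 ± 1.71 CPM per kb. Mmp16, a membrane-anchored MMP, had 7.62 ± 1.21 CPM per kb and Timp4 7.43 ± 0.545 CPM per kb, so that Timp3, Mmp16 and Timp4 lay within or close to each other's spread. Timp1, the secreted inhibitor induced by inflammation, had 2.38 ± 1.65 CPM per kb and Adamts4, an aggrecanase, 2.29 ± 0.742 CPM per kb. The remaining proteases were each under 1 CPM per kb, with Adamts1 at 0.859 ± 0.338, Mmp2 at 0.274 ± 0.281, Mmp14 at 0.194 ± 0.268 and Adamts9 at 0.0388 ± 0.0422 CPM per kb.

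In uninjured white matter the order was headed by Adamts4, at 32.6 ± 15.5 CPM per kb, and Timp2, at 31.5 ± 13.6 CPM per kb (SD, n = 5), whose spreads overlapped widely. Timp3 had 10.7 ± 6.02 CPM per kb and Adamts1, a secreted protease that cuts aggrecan and versican, 3.86 ± 2.05 CPM per kb. The other 6 genes did not separate from one another. Timp4 had 2.38 ± 1.83, Mmp16 2.03 ± 1.85, Adamts9 1.41 ± 0.833, Timp1 1.16 ± 1.97, Mmp14 1.12 ± 1.46 and Mmp2 0.42 ± 0.553 CPM per kb.

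Among the 6 members tested between the uninjured regions, 2 ADAMTS genes were called. Adamts4 had 13.0, 13.3, 14.5, 6.89 and 7.46 CPM in the 5 uninjured cortex IP libraries, against 170, 259, 141, 49.9 and 163 CPM in uninjured white matter. Every cortex library lay below every white matter library, and the log2 difference, cortex minus white matter, was -4.35 ± 0.46 (SE; edgeR quasi-likelihood test, Benjamini-Hochberg adjusted p = 5.57e-06). Adamts1 had 3.00, 4.73, 3.16, 4.43 and 7.46 CPM in cortex, against 17.2, 15.8, 9.62, 21.3 and 38.4 CPM in white matter, again without overlap (log2 difference -2.69 ± 0.65, edgeR adjusted p = 0.00556). These 2 of 10 members were called lower in cortex and none higher, in a comparison that called 27.5% of all 11815 genes tested in either direction and 15.5% lower. The median log2 difference over all genes tested was -0.23, and it was -0.28 over the 6 members tested. Adamts9 was not tested; it had 0 to 1.48 CPM in cortex on 8 counts, against 3.03 to 36.2 CPM in white matter on 259 counts, without overlap. Mmp16 had 55.0 to 77.1 CPM in cortex and 3.79 to 42.7 CPM in white matter, again with no overlap, but its log2 difference of 1.45 ± 0.55 missed the threshold (edgeR adjusted p = 0.0644) and passed it in DESeq2 (adjusted p = 0.0122), in edgeR with RLE size factors (1.60, adjusted p = 0.0437) and in edgeR with the replicate number as a block (1.84, adjusted p = 0.0294). Timp4 had 41.1 to 49.2 CPM in cortex and 5.26 to 31.5 CPM in white matter, with no overlap and a log2 difference of 1.17 ± 0.54 (edgeR adjusted p = 0.122, DESeq2 adjusted p = 0.0325). Oligodendrocyte markers moved with Adamts4: their summed level over 8 genes was 2075 ± 319 CPM in cortex and 44260 ± 9203 CPM in white matter (SD, n = 5 each, exact permutation test, p = 0.00794), all 8 were called lower in cortex, and their part in the result was not tested. In such bulk samples fewer cells of a type and less RNA per cell cannot be told apart.

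After stroke, the cortex libraries of zone 1 showed the clearest change. Of the 10 genes, 4 rose against uninjured cortex and none fell: the inhibitor Timp2, the membrane protease Mmp14, and the proteoglycan-cutting Adamts1 and Adamts4. The comparison called 5.3% of 12526 genes in either direction and 4.81% higher. The median log2 fold change was 1.26 over the 7 members tested and 0.07 over all genes tested; Timp1, Mmp2 and Adamts9 fell under the count filter and were not tested. Mmp14 passed that filter through its zone 1 counts, so its place among the tested genes depended on the difference, and the count and median over members are descriptions only.

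Timp2 had 434, 615, 461, 532 and 291 CPM in cortex zone 1, against 188, 181, 174, 189 and 212 CPM in uninjured cortex. The lowest zone 1 library exceeded the highest uninjured one, and the log2 fold change was 1.26 ± 0.21 (SE; edgeR adjusted p = 0.000681). Mmp14, also called MT1-MMP, is a membrane-anchored collagenase that activates pro-MMP2 together with TIMP2. It had 48.7, 8.06, 13.0, 54.1 and 9.40 CPM in zone 1, against 0, 0, 3.79, 0.492 and 1.49 CPM in uninjured cortex. All 5 zone 1 libraries again lay above all uninjured ones, with 380 counts in zone 1 against 11 counts in uninjured cortex. The log2 fold change was 4.33 ± 0.90 (edgeR adjusted p = 0.00546), for a gene that entered the test only because zone 1 was high and was under the filter in zones 2 to 5. In zone 1, 2 libraries stood at 48.7 and 54.1 CPM and the other 3 at 8.06 to 13.0 CPM.

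Adamts1 had 23.1, 25.6, 18.3, 17.8 and 31.5 CPM in cortex zone 1, against 3.00, 4.73, 3.16, 4.43 and 7.46 CPM in uninjured cortex. The groups did not overlap, and the log2 fold change was 2.28 ± 0.52 (edgeR adjusted p = 0.0107). Without uninjured replicate 3 the value was 2.17 and no longer passed (adjusted p = 0.053). Adamts4 had 56.4, 56.2, 24.9, 83.6 and 56.6 CPM in zone 1, against 13.0, 13.3, 14.5, 6.89 and 7.46 CPM in uninjured cortex. Here too every zone 1 library was higher than every uninjured library (log2 fold change 2.29 ± 0.43, edgeR adjusted p = 0.00227). Zone 1 replicate 3 was the low one for Adamts4 and replicate 4 the high one.

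The other 6 genes did not pass or could not be tested in cortex zone 1. Adamts9, whose protein cuts versican and aggrecan, had 7.69, 13.5, 1.99, 2.38 and 7.24 CPM in zone 1, against 0, 0.947, 0, 1.48 and 0.497 CPM in uninjured cortex; the groups did not overlap, on 133 counts in zone 1 and 8 counts in uninjured cortex. Timp1 had 30.8, 22.2, 8.31, 0 and 11.0 CPM in zone 1, against 2.00, 0.947, 3.16, 0.492 and 3.98 CPM in uninjured cortex, so that 4 zone 1 libraries were above all uninjured ones and 1 had no count. Mmp2, the secreted gelatinase A, had 2.57, 15.6, 0, 1.43 and 5.68 CPM in zone 1, against 1.00, 0, 0.632, 0.492 and 2.49 CPM in uninjured cortex. The groups overlapped, and 89 of its 125 zone 1 counts came from replicate 2. Timp3 averaged 109 ± 57.2 CPM in zone 1 and 78.4 ± 13.9 CPM in uninjured cortex (SD, n = 5 each). Timp4 averaged 39.6 ± 21.6 CPM in zone 1 and 43.8 ± 3.21 CPM in uninjured cortex, and Mmp16 65.1 ± 44.0 CPM in zone 1 and 66.0 ± 10.4 CPM in uninjured cortex. The groups overlapped for all 3, and the wide zone 1 spread of Timp4 came from replicate 1, at 76.9 CPM among values of 22.3 to 36.3 CPM.

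**Figure D1:**
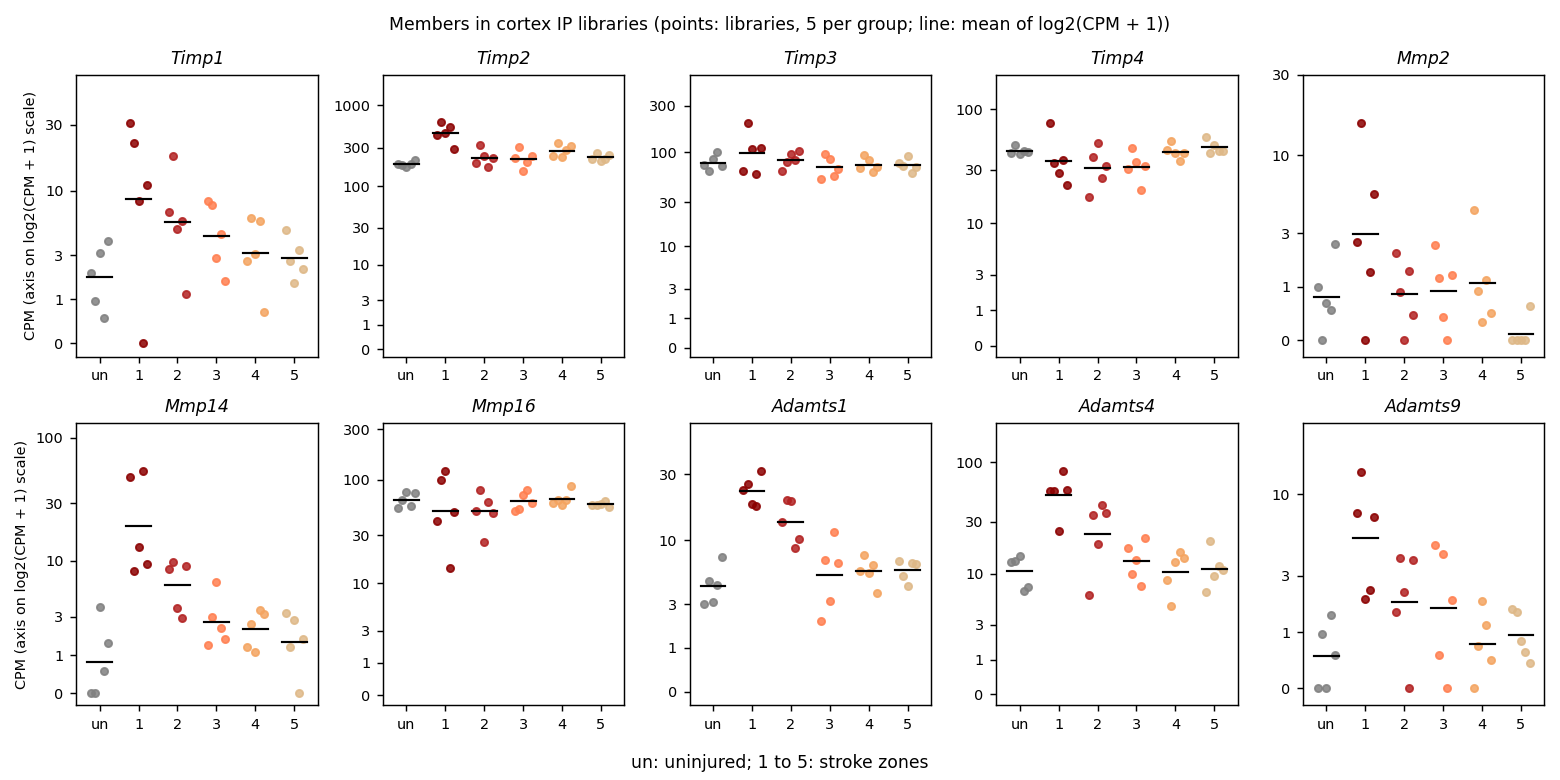
Level of each gene in the cortex IP libraries, as CPM on an axis scaled by log2(CPM + 1), for uninjured tissue (un) and stroke zones 1 to 5; points are libraries (5 per group) and lines are group means of log2(CPM + 1). Timp2, Mmp14, Adamts1 and Adamts4 lie highest in zone 1, with Timp2 at 291 to 615 CPM there, while Timp4 and Mmp16 overlap with their uninjured values in every zone.

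Markers of other cells moved with these 4 genes. In cortex zone 1 the summed level of 12 microglia and macrophage markers was 2222 ± 492 CPM against 184 ± 64.5 CPM in uninjured cortex, and 12 of the 12 rose. The sum of 8 oligodendrocyte markers was 7289 ± 1525 CPM in zone 1 against 2075 ± 319 CPM in uninjured cortex, and 7 of the 8 rose. That of 8 leukocyte markers was 56.1 ± 18.1 CPM in zone 1 against 3.61 ± 2.77 CPM in uninjured cortex, where only Ptprc and Cd79a had any counts. The sum of 6 oligodendrocyte precursor markers was 660 ± 139 CPM in zone 1 against 248 ± 71.9 CPM in uninjured cortex, and that of 8 endothelial markers 345 ± 99.8 CPM in zone 1 against 139 ± 57.2 CPM in uninjured cortex. Each of these 5 sums separated without overlap, with an exact permutation p of 0.00794, the smallest that 5 against 5 libraries allow. Fibroblast and meningeal markers summed to 74.8 ± 93.9 CPM in zone 1 and 8.67 ± 4.09 CPM in uninjured cortex, with overlap (exact permutation test, p = 0.0476). The neuron, mural and ependymal sums overlapped, with exact permutation p of 0.333, 0.127 and 0.27. The astrocyte sum was 6535 ± 1062 CPM in zone 1 against 5034 ± 1617 CPM in uninjured cortex (exact permutation test, p = 0.111), with Gfap and Aqp4 higher and Aldoc lower past the threshold. The part of these markers in the rise of Timp2, Mmp14, Adamts1 and Adamts4 was not tested.

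Promoter sequence was at hand for 7 of the 10 genes, as the 250 bases before the start given by RefSeq on GRCm38.p6; it was not at hand for Mmp2, Mmp16 and Adamts4. Shown are the windows of the 3 genes that rose in cortex zone 1 and, beside them, that of Timp4, an inhibitor that did not pass there. Capitals mark GC boxes (GGGCGG on either strand) and, in Adamts1, a TATA box (TATAAA). The windows run 5′ to 3′ on the gene's strand, at chr11:118355412-118355661 (minus strand) for Timp2, chr14:54431348-54431597 (plus strand) for Mmp14, chr16:85803114-85803363 (minus strand) for Adamts1 and chr6:115252206-115252455 (minus strand) for Timp4.
Timp2: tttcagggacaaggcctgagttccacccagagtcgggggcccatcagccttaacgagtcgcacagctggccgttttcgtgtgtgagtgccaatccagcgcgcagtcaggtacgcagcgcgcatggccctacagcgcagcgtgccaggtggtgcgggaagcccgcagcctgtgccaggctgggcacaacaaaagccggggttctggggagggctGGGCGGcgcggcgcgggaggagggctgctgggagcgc
Mmp14: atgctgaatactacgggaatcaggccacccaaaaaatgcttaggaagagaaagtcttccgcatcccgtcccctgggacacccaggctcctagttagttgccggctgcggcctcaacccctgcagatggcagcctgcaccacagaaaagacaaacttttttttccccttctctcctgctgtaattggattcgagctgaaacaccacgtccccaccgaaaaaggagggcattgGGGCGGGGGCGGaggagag
Adamts1: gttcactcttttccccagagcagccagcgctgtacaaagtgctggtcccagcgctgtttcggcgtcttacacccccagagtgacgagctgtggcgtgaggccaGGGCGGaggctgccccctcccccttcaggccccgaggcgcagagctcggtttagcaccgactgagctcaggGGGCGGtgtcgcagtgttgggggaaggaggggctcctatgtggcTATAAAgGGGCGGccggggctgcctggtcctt
Timp4: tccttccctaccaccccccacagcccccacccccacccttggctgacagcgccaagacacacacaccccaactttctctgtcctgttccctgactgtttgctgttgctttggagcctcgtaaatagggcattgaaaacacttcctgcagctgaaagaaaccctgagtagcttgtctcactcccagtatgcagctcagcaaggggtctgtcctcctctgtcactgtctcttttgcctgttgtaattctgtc
The Timp2 window holds 1 GC box, 37 to 32 bases before the start, that of Mmp14 holds 2 directly adjoining ones ending 8 bases before the start, and that of Adamts1 holds 3, the nearest 25 to 20 bases before the start. The TATA box of Adamts1 lies 32 to 27 bases before the start, next to that GC box. Timp4 holds none of the motifs. The windows not shown, of Timp1, Timp3 and Adamts9, each hold 1 GC box, 8 to 3, 15 to 10 and 7 to 2 bases before the start. Timp3 was not called in cortex zone 1 and Timp1 and Adamts9 were not tested there. GC boxes were thus found in genes with and without a call. A GC box was found in 6 of the 7 windows and in 32.7% of all 32851 windows of the same length, and a TATA box in 1 of the 7 and in 12.4% of all. The AP-1 letters TGANTCA (6.75% of all windows) and the STAT letters TTCNNNGAA (7.02% of all windows), searched on both strands, were in none of the 7. GC content was 68% for Timp2, 65.6% for Adamts1, 55.2% for Mmp14 and 53.6% for Timp4, beside a median of 52.4% over all windows. The GENCODE gene model of Timp2 reaches chr11:118355740, beyond the RefSeq start, so the whole Timp2 window lies within that gene model. The position of its GC box holds for the RefSeq start only. A match is a match of letters and was not shown to be bound.

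In cortex zone 2 only Adamts1 rose, 1 of the 10 genes, in a comparison that called 3.64% of 11713 genes in either direction and 3.12% higher. Adamts1 had 13.6, 19.8, 19.3, 8.74 and 10.1 CPM in zone 2, against 3.00 to 7.46 CPM in uninjured cortex. The groups did not overlap, and the log2 fold change was 1.66 ± 0.44 (edgeR adjusted p = 0.0246). Adamts1 passed the count filter here only through zone 2, where it was high. Its place among the tested genes thus depended on the difference, and the count of 1 is a description only. The call was lost without zone 2 replicate 2 (adjusted p = 0.0877) or 3 (0.0657) and without uninjured replicate 2 (0.0556) or 3 (0.0634), and with the replicate number as a block (1.59, adjusted p = 0.0608).

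Adamts4 had 6.28, 34.4, 18.8, 42.2 and 35.8 CPM in cortex zone 2, against 6.89 to 14.5 CPM in uninjured cortex. The first zone 2 library lay below all uninjured ones and the other 4 above all of them. The log2 fold change of 1.37 ± 0.40 just missed the threshold (edgeR adjusted p = 0.0511) and passed it without zone 2 replicate 1 (1.65, adjusted p = 0.00309), in DESeq2 (adjusted p = 0.0322), with RLE size factors (0.0493), without the filter (0.00855) and with the 6 abundant genes kept (0.049). Mmp14, untested here, had 8.37, 9.70, 3.67, 2.91 and 8.95 CPM in zone 2, with 73 counts against 11 in uninjured cortex. Timp2 averaged 231 ± 57.8 CPM in zone 2 and 189 ± 14.6 CPM in uninjured cortex, and Timp1 averaged 7.38 ± 6.34 CPM in zone 2 on 76 counts and 2.12 ± 1.47 CPM in uninjured cortex on 18 counts (SD, n = 5 each). The microglia and macrophage sum was 701 ± 155 CPM in zone 2 against 184 ± 64.5 CPM in uninjured cortex (11 of 12 markers rose) and the oligodendrocyte sum 3757 ± 509 CPM against 2075 ± 319 CPM (6 of 8 rose). Their part in the result was not tested.

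In cortex zones 3, 4 and 5 none of the 10 genes was called by edgeR, where 0.0405%, 0% and 0% of all genes were. At an unadjusted p under 0.05 there were 0 members in zone 3, 1 in zone 4 and 0 in zone 5, and DESeq2 called 0 in each. The 1 in zone 4 was Timp2, which had 234, 339, 230, 278 and 315 CPM there, each above the highest uninjured value of 212 CPM (log2 fold change 0.50, edgeR adjusted p = 0.35). The mean of Timp2 was 224 ± 56.0 CPM in zone 3 and 229 ± 23.1 CPM in zone 5 (SD, n = 5 each). Adamts1 averaged 6.06 ± 3.67 CPM in zone 3, 5.84 ± 1.43 CPM in zone 4 and 5.93 ± 1.10 CPM in zone 5, beside 4.56 ± 1.79 CPM in uninjured cortex. Adamts4 averaged 14.0 ± 5.59, 11.3 ± 4.47 and 11.8 ± 5.11 CPM in zones 3, 4 and 5, beside 11.0 ± 3.57 CPM in uninjured cortex, and these ranges overlapped.

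Over the 25 cortex stroke libraries alone, with zone number as a term and no uninjured library, 7 of the 10 genes fell from zone 1 outwards and none rose; 19.6% of 15148 genes were called in either direction and 13.7% lower. Adamts4 fell by 0.58 ± 0.09 per zone step on the log2 scale (edgeR adjusted p = 6.59e-06) and Adamts1 fell by 0.53 ± 0.09 per step (adjusted p = 5.12e-05). Mmp14 fell by 0.95 ± 0.14 (adjusted p = 1.49e-06) and Adamts9 fell by 0.69 ± 0.18 (adjusted p = 0.00529), but both passed the count filter only through zone 1, so their slopes and their part in the count of 7 depended on that selection. Among the inhibitors Timp1 fell by 0.54 ± 0.16 (adjusted p = 0.0136), Timp2 fell by 0.20 ± 0.05 (adjusted p = 0.00288) and Timp3 fell by 0.14 ± 0.05 per step (adjusted p = 0.0487). The 2 genes tested without a call were Timp4, with a slope of 0.11 ± 0.06, and Mmp16, with -0.01 ± 0.07; Mmp2 was not tested. The median slope was -0.53 over the 9 members tested and -0.02 over all genes.

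The slopes rested in part on single zones. With zone 1 left out, an alternative chosen after seeing the data, 2 of the 10 genes were still called: Adamts1, with a slope of -0.44 ± 0.13 (adjusted p = 0.0185), and Adamts4, also with -0.44 ± 0.12 (adjusted p = 0.0114). The slope of Timp2 was then -0.01 (adjusted p = 0.961), that of Timp1 -0.49 (adjusted p = 0.0792) and that of Timp3 -0.09 (adjusted p = 0.305), while Mmp14 and Adamts9 fell under the count filter. Timp1 also lost its call with zone 4 (adjusted p = 0.0559) or zone 5 (0.0982) left out, and Timp3 with any single zone left out (0.074 to 0.305), with the replicate number as a block (0.0582) and without the filter (0.0882). Timp3 further lost it in 21 of the 25 fits that left out 1 library, most widely without zone 1 replicate 2 (slope -0.06, adjusted p = 0.35), and Timp1 in 1 of 25, without that same library (slope -0.47, adjusted p = 0.0516). In zone 1 replicate 2, Syn3, which overlaps Timp3, had 291.5 CPM, beside 23.08 to 113 CPM in the other zone 1 libraries. The part of Syn3 reads in the Timp3 slope was not tested. Along the same zones the mean microglia and macrophage sum was 2222, 701, 290, 198 and 163 CPM in zones 1 to 5, and all 12 of those markers and all 8 oligodendrocyte markers had falling slopes past the threshold. Their part in the gradient was not tested.

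In white matter, edgeR called none of the 10 genes in any zone, where it called 0.45%, 0.941%, 0%, 0.0666% and 0% of all genes in zones 1 to 5. At an unadjusted p under 0.05 there were 1, 2, 2, 2 and 0 members in zones 1 to 5, and DESeq2 called 1, 1, 0, 0 and 0. The median log2 fold change over all genes tested was 0.12 in zone 3 and -0.12 in zone 5, and within 0.1 of 0 in the other zones.

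Timp2 was the member whose white matter libraries separated from uninjured ones. It had 287, 540, 431, 556 and 226 CPM in zone 1 and 265, 602, 265, 327 and 331 CPM in zone 2, against 123, 128, 54.6, 107 and 202 CPM in uninjured white matter. All 10 stroke libraries of these zones exceeded every uninjured one, and no other member separated in that way in white matter. The log2 fold change was 1.60 ± 0.54 in zone 1 (edgeR adjusted p = 0.19; DESeq2 1.84, adjusted p = 0.048) and 1.24 ± 0.38 in zone 2 (edgeR adjusted p = 0.118; DESeq2 1.31, adjusted p = 0.0305). Without the zone 1 libraries that stand apart, replicates 1 and 5, the zone 1 value was 1.61 (edgeR adjusted p = 0.0429).

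Farther out, Timp2 had 5.82, 363, 339, 279 and 475 CPM in zone 3, 316, 493, 193, 609 and 168 CPM in zone 4, and 145, 299, 2.01, 412 and 205 CPM in zone 5. The 2 lowest values, in zone 3 replicate 1 and zone 5 replicate 3, come from libraries that stand apart by few detected genes, at 8215 and 6382. The log2 fold change against uninjured white matter was 1.44 ± 0.80 in zone 3 (edgeR adjusted p = 0.513) and 1.35 ± 0.45 in zone 4 (adjusted p = 0.262).

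**Figure D2:**
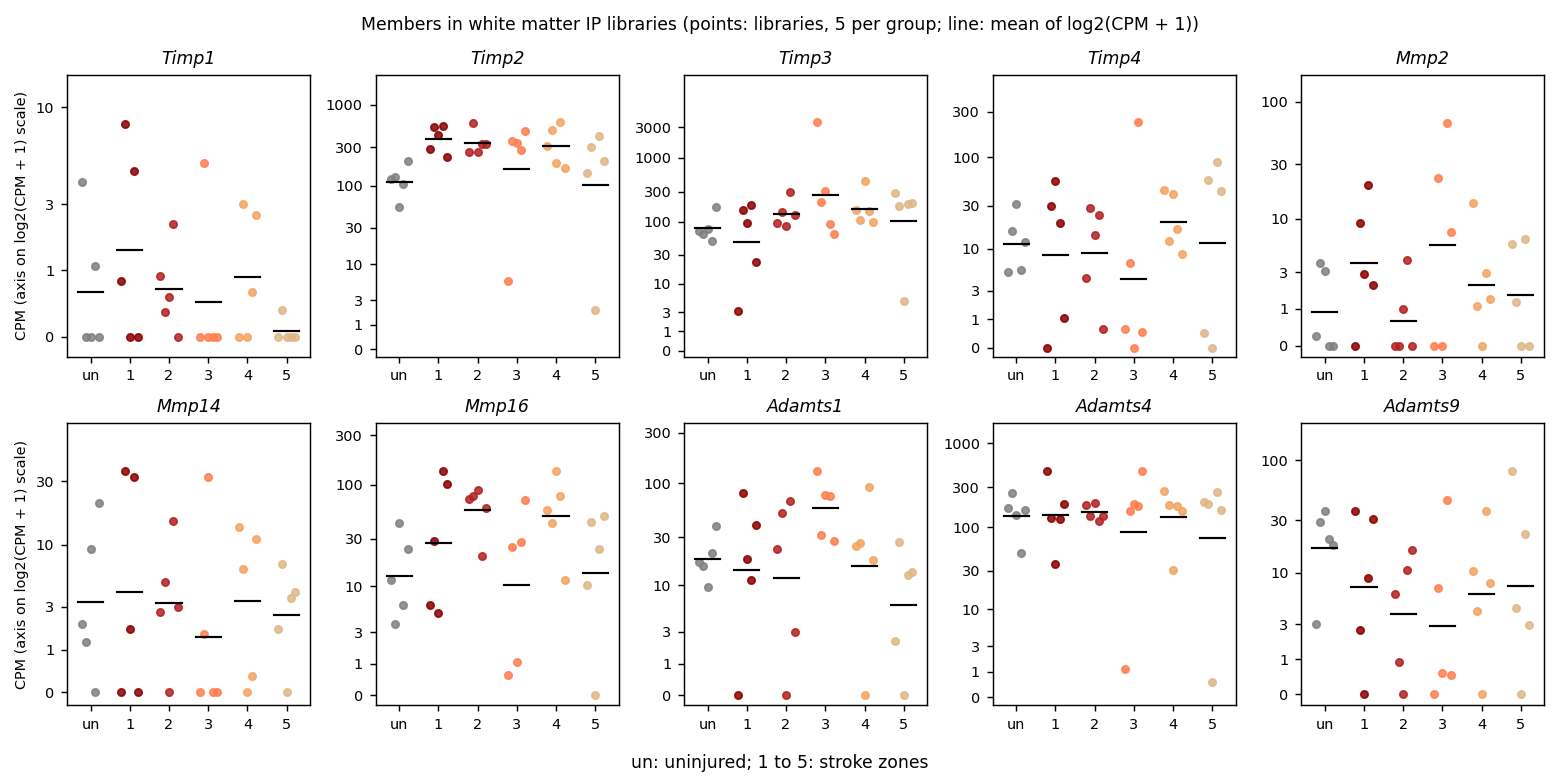
Level of each gene in the white matter IP libraries, as CPM on an axis scaled by log2(CPM + 1), for uninjured tissue (un) and stroke zones 1 to 5; points are libraries (5 per group) and lines are group means of log2(CPM + 1). Timp2 lies above its uninjured values of 54.6 to 202 CPM in every library of zones 1 and 2, and the other genes spread widely within groups, with 1 Timp3 library at 3609 CPM in zone 3.

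The other inhibitors varied widely in white matter. Timp3 had 3609, 203, 308, 93.7 and 64.1 CPM in zone 3, against 71.0, 65.1, 76.5, 50.7 and 173 CPM in uninjured white matter. Its log2 fold change of 5.50 ± 1.50 (edgeR adjusted p = 0.278) was 0.93 without zone 3 replicate 1, so that 1 library with few detected genes decided its size. In that library the overlapping Syn3 had 4792 CPM, beside 1.89 to 246 CPM in the other zone 3 libraries. Timp4 had 0.582, 6.75, 0, 232 and 0.471 CPM in zone 3, where its log2 fold change of 1.64 ± 1.38 was -2.55 without replicate 4, and 0 to 55.6 CPM in zone 1, against 5.26 to 31.5 CPM in uninjured white matter. Timp1 had no count in 16 of the 30 white matter IP libraries and at most 8.26 CPM in the others.

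Among the metalloproteases in white matter, Mmp16 had 6.28, 28.2, 5.05, 136 and 102 CPM in zone 1 and 73.4, 78.5, 89.4, 20.1 and 60.5 CPM in zone 2, against 11.5, 3.79, 42.7, 6.24 and 23.8 CPM in uninjured white matter. In zone 2, 4 of 5 libraries were above all uninjured ones, with a log2 fold change of 1.71 ± 0.76 (edgeR adjusted p = 0.303); it was 1.41 ± 1.01 in zone 1 (adjusted p = 0.566) and 1.84 ± 0.84 in zone 4 (adjusted p = 0.425). Mmp14 had 0, 35.3, 1.80, 32.1 and 0 CPM in zone 1, against 2.02, 1.26, 9.23, 0 and 20.8 CPM in uninjured white matter. The groups overlapped, with 2 of the 5 zone 1 libraries above all uninjured ones, and Mmp14 was too sparse to be tested there. Mmp2 had 0 to 19.8 CPM in zone 1 and 0, 22.6, 0, 66.7 and 7.54 CPM in zone 3, against 0 to 3.79 CPM in uninjured white matter, and was not tested. Of its counts in zone 3, 141 came from replicate 4, while the other 4 libraries had 0, 57, 0 and 16.

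Adamts4, already abundant in uninjured white matter, had 470, 129, 36.1, 125 and 189 CPM in zone 1 and 183, 139, 194, 121 and 137 CPM in zone 2, against 170, 259, 141, 49.9 and 163 CPM in uninjured tissue. The zone 1 value of 470 CPM came from a library with few detected genes, and the remaining values of both zones lay within the uninjured range apart from zone 1 replicate 3. Adamts1 had 130, 31.8, 76.2, 75.7 and 27.8 CPM in zone 3, against 17.2, 15.8, 9.62, 21.3 and 38.4 CPM in uninjured white matter. Its log2 fold change of 3.11 ± 0.97 missed the threshold (edgeR adjusted p = 0.278) and was 1.37 without zone 3 replicate 1; in zone 5 it was -1.07 ± 1.09 (adjusted p = 0.938). Adamts9 had 6.26, 0.879, 0, 10.7 and 16.2 CPM in zone 2, against 3.03, 29.1, 36.2, 20.2 and 17.9 CPM in uninjured white matter, which overlapped (log2 fold change -1.78 ± 1.16, edgeR adjusted p = 0.529).

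Marker sums shifted in white matter as well. The microglia and macrophage sum was 2733 ± 1064 CPM in zone 1 against 260 ± 49.1 CPM in uninjured white matter (exact permutation test, p = 0.00794; 4 of 12 markers rose), and the oligodendrocyte sum was 20920 ± 9789 CPM in zone 1 against 44260 ± 9203 CPM in uninjured white matter (exact permutation test, p = 0.0159; 0 of 8 markers passed edgeR's threshold). The astrocyte sum was 9605 ± 1673 CPM in zone 1 and 11530 ± 2289 CPM in zone 2, against 6514 ± 1149 CPM in uninjured white matter, without overlap in either zone. Leukocyte markers summed to 101 ± 103 CPM in zone 1 and 36.0 ± 22.9 CPM in zone 2, against 6.10 ± 6.72 CPM in uninjured white matter, also without overlap. In zone 2 the microglia and macrophage sum was 1343 ± 402 CPM against 260 ± 49.1 CPM in uninjured white matter, the neuron sum 4060 ± 2253 CPM against 1115 ± 450 CPM, and the sum of 6 ependymal and choroid plexus markers 934 ± 1289 CPM against 14.0 ± 8.55 CPM, none of which overlapped. Each of these zone 1 and zone 2 separations had an exact permutation p of 0.00794. The part of these markers in the white matter values of Timp2, Mmp16 and Adamts4 was not tested. Over zones 1 to 5 in white matter, no member had a slope past the threshold, where 1.93% of all genes did; 0 had an unadjusted p under 0.05 and DESeq2 called 0.

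Whether cortex and white matter responded differently was tested directly, as the zone-minus-uninjured change in cortex minus that in white matter. No member passed in zone 1 (1.88% of all genes called; 1 member, Mmp14, at an unadjusted p under 0.05; DESeq2 0) or in zone 2 (2.75% called; 4 members at an unadjusted p under 0.05; DESeq2 0). In zone 1 the difference was 3.70 ± 1.80 for Mmp14 (edgeR adjusted p = 0.284), 3.24 ± 1.59 for Adamts9 (adjusted p = 0.29), 2.08 ± 1.17 for Adamts1 (adjusted p = 0.372) and 1.64 ± 0.88 for Adamts4 (adjusted p = 0.344). Without the libraries that stand apart the zone 1 difference was 3.35 ± 0.73 for Adamts4 (adjusted p = 0.00592) and 6.04 ± 1.77 for Adamts9 (adjusted p = 0.0398), and both passed. That fit left out cortex zone 1 replicate 1 and white matter zone 1 replicates 1 and 5. The white matter libraries left out had the highest levels of their group for both genes. Adamts9 had 36.1 and 30.75 CPM in them, against 2.56, 0 and 8.86 CPM in replicates 2, 3 and 4. Adamts4 had 470 and 189 CPM in them, against 129, 36.1 and 125 CPM. In zone 2 the difference was -1.97 ± 0.74 for Mmp16 (adjusted p = 0.146), 1.57 ± 0.62 for Adamts4 (adjusted p = 0.174) and 3.57 ± 1.50 for Adamts9 (adjusted p = 0.204).

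**Figure D3:**
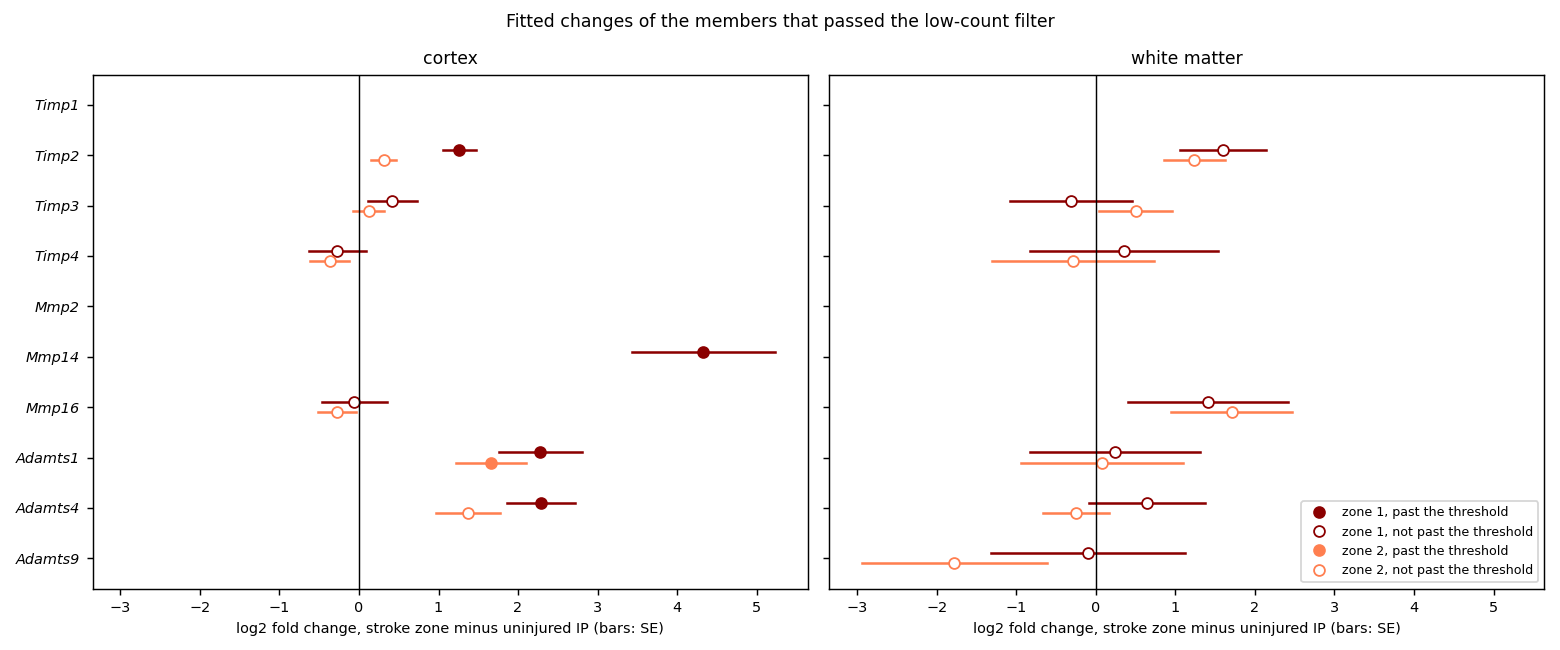
Fold change of each gene against uninjured IP libraries of the same region on the log2 scale, for zones 1 and 2 of cortex and white matter (5 libraries per group); bars are standard errors and filled points passed edgeR's adjusted threshold. The filled points are Timp2, Mmp14, Adamts1 and Adamts4 in cortex zone 1 and Adamts1 in cortex zone 2, and no white matter point is filled.

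Immunoprecipitated RNA was then set against input within each cohort. Of the 10 genes 1 was called in uninjured cortex, Adamts9, which was lower in IP; the comparison called 25.3% of 11280 genes in either direction and 13.4% lower. Adamts9 had 0, 0.947, 0, 1.48 and 0.497 CPM in IP, against 69.7, 9.18, 17.8, 7.41 and 29.4 CPM in input. The groups did not overlap, with 8 counts in IP and 180 counts in input. The log2 fold change was -5.47 ± 0.84 (edgeR adjusted p = 0.000213), on a scale where the median over all genes was -0.11. The gene passed the count filter only through input, where it is high. Input replicate 1, at 69.7 CPM of Adamts9, had 30263 detected genes, the most of all 82 libraries. It had 516 CPM of Syn1, beside 1965 to 2333 CPM in the other uninjured cortex input libraries. Fibroblast and meningeal markers summed to 8.67 ± 4.09 CPM in IP and 83.0 ± 103 CPM in input, without overlap (SD, n = 5 each, exact permutation test, p = 0.00794), and leukocyte markers to 3.61 ± 2.77 CPM in IP and 61.5 ± 77.0 CPM in input (exact permutation test, p = 0.0317). Their part in the Adamts9 result was not tested. A730049H05Rik, which shares exon bases with Adamts9 on the opposite strand, averaged 0.379 CPM in IP and 1.16 CPM in input. Timp2 had 188, 181, 174, 189 and 212 CPM in IP, against 38.5, 99.5, 165, 86.6 and 105 CPM in input, without overlap but with an edgeR adjusted p of 0.0977 (log2 fold change 0.62). Timp4 had 41.1 to 49.2 CPM in IP, against 9.61 to 34.8 CPM in input, also without overlap and without a call.

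In the cortex cohort of zones 1 to 3, Timp2 and Adamts4 were higher in IP than in input, 2 of the 10 genes, where 28.5% of 11476 genes were called in either direction and 13.6% higher. Timp2 had 226, 233 and 206 CPM in IP, against 92.5, 85.4 and 141 CPM in input, with no overlap (log2 fold change 0.84 ± 0.19, edgeR adjusted p = 0.00771). Adamts4 had 15.9, 10.5 and 18.8 CPM in IP, against 3.77, 1.67 and 4.43 CPM in input, also without overlap (log2 fold change 1.91 ± 0.63, edgeR adjusted p = 0.0396). Adamts4 passed the count filter only through IP, where it was high. Its place among the tested genes, and so its part in the count of 2, depended on the difference. Timp3 had 79.7, 67.1 and 65.3 CPM in IP, against 38.5, 47.7 and 28.3 CPM in input, without overlap and without a call. Timp4 also lay higher in IP without overlap, at 38.3 to 49.4 CPM against 24.3 to 36.7 CPM in input, and was not called. Mmp16 lay lower in IP without overlap, at 40.9, 54.0 and 50.6 CPM against 57.0, 55.2 and 81.4 CPM in input (log2 fold change -0.64 ± 0.28, edgeR adjusted p = 0.104). Leaving out any 1 library except input replicate 2 ended the Adamts4 call (adjusted p 0.0569 to 0.166), as did the replicate number as a block (1.97, adjusted p = 0.0687) and no low-count filter (2.06, adjusted p = 0.101). Adamts9 had 2.66, 1.32 and 1.63 CPM in IP, against 3.02, 63.6 and 3.54 CPM in input, on 9 counts in IP and 92 counts in input, and was not tested. In these cortex cohorts oligodendrocyte marker sums were also higher in IP than in input, at 2075 ± 319 CPM in IP against 1354 ± 281 CPM in input of uninjured tissue (SD, n = 5 each, exact permutation test, p = 0.00794) and 2045 ± 243 CPM in IP against 1339 ± 138 CPM in input of zones 1 to 3 (SD, n = 3 each, exact permutation test, p = 0.1, the smallest possible). Their part in the Adamts4 result was not tested.

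**Figure D4:**
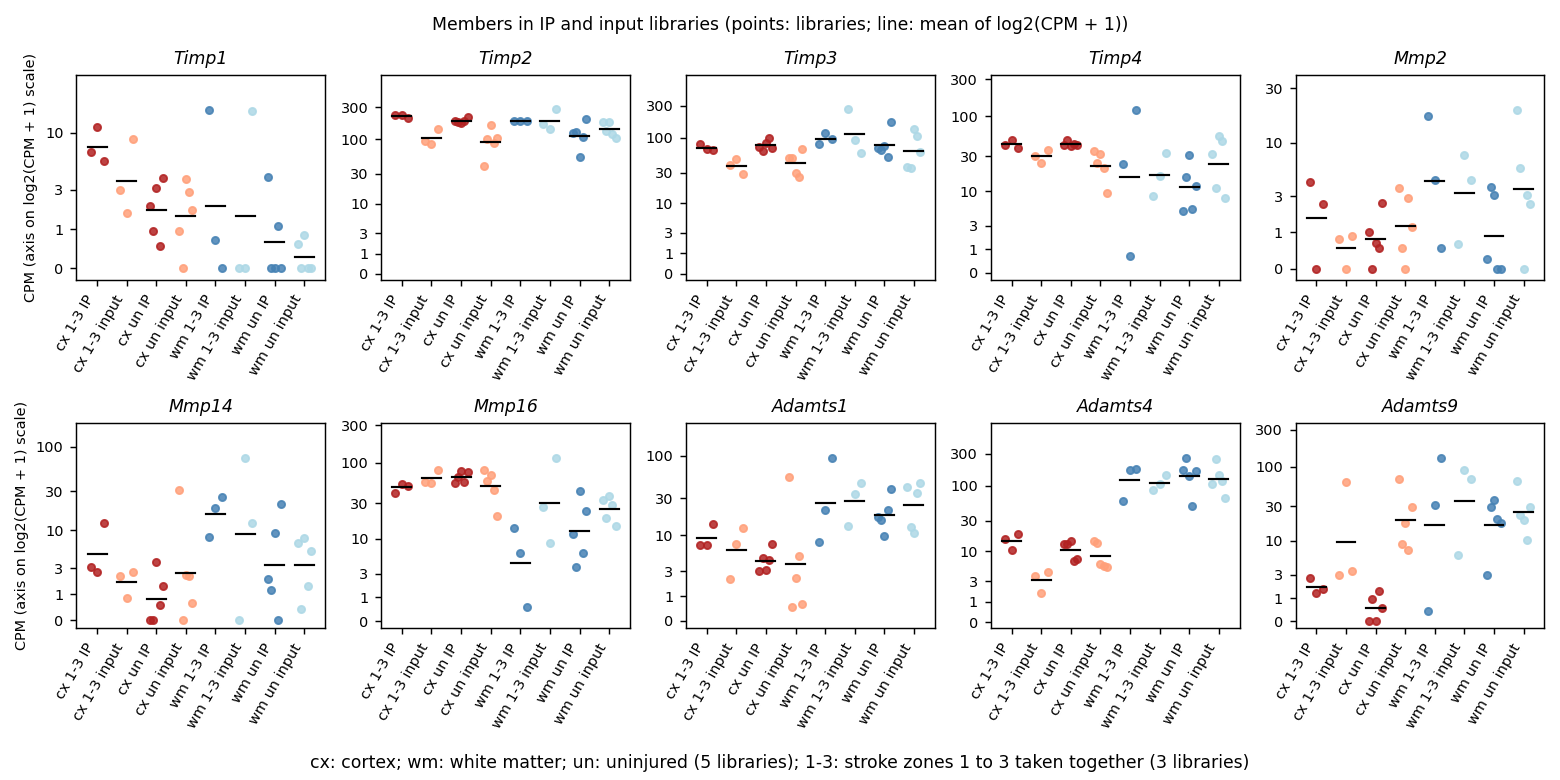
Level of each gene in IP and input libraries of the 4 cohorts with both, as CPM on an axis scaled by log2(CPM + 1); points are libraries (5 per uninjured group, 3 per group of zones 1 to 3). Adamts9 in uninjured cortex lies lower in IP, at 0 to 1.48 CPM, than in input, at 7.41 to 69.7 CPM, and in white matter IP and input overlap for every gene.

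In white matter, edgeR called no member between IP and input, in uninjured tissue (0.603% of all genes called) or in zones 1 to 3 (0% called), and in both there were 0 members at an unadjusted p under 0.05 and 0 by DESeq2. The cortical contrast of Adamts9 has no match there, as it had 3.03, 29.1, 36.2, 20.2 and 17.9 CPM in uninjured white matter IP, against 64.7, 23.1, 19.6, 10.5 and 29.0 CPM in input; the difference between the 2 contrasts was not tested. In zones 1 to 3 of white matter Mmp16 had 14.0, 6.36 and 0.499 CPM in IP, against 27.0, 8.72 and 115 CPM in input (log2 fold change -2.66 ± 1.52, edgeR adjusted p = 0.802).

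The separate cohort of zones 1 to 3 gave a second comparison with the same uninjured libraries. None of the 10 genes was called in cortex IP (0.232% of all genes called), cortex input (0.0074%), white matter IP (0.0333%) or white matter input (0.055%). At an unadjusted p under 0.05 there was 1 member in cortex IP and 0 in each of the other 3, and DESeq2 called 0 in all 4. The 1 in cortex IP was Adamts1, which had 7.43, 7.24 and 13.9 CPM in zones 1 to 3, against 3.00 to 7.46 CPM in uninjured cortex (log2 fold change 1.11 ± 0.54, edgeR adjusted p = 0.67). Timp1 had 6.90, 11.2 and 5.71 CPM in the 3 libraries of zones 1 to 3, each above the uninjured maximum of 3.98 CPM, on 37 counts in zones 1 to 3 and 18 counts in uninjured cortex, and was not tested. Mmp16 had 40.9, 54.0 and 50.6 CPM in zones 1 to 3, each below the uninjured minimum of 55.0 CPM (log2 fold change -0.36 ± 0.23, edgeR adjusted p = 0.793). Mmp14 had 3.19, 2.63 and 12.2 CPM, Timp2 226, 233 and 206 CPM and Adamts4 15.9, 10.5 and 18.8 CPM in zones 1 to 3, so that none of them reached its mean in zone 1 alone.

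Genes with the most similar pattern were ranked by Pearson correlation of log2(CPM + 1) over the 60 IP libraries of uninjured tissue and zones 1 to 5, which share depth differences and the contrast between regions. For Adamts4 they were Sox10 (r = 0.927), a transcription factor of the oligodendrocyte lineage, Arhgef10 (0.924) and Phldb1 (0.910). Within regions (n = 30 each), the r with Sox10 was 0.782 in cortex and 0.883 in white matter. For Timp2 the nearest gene was Psap (0.909), the precursor of the saposins, with 0.473 in cortex and 0.954 in white matter, and Lrp1, an endocytic receptor that takes up proteases and their complexes with inhibitors, had 0.856. Other genes had weaker partners, such as Rnf14 for Mmp16 (0.878) and Ndufb10 for Timp4 (0.847, but -0.123 in cortex alone). For Mmp14 and Mmp2 the highest r were 0.642 and 0.544, in sparse counts.

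**Figure D5:**
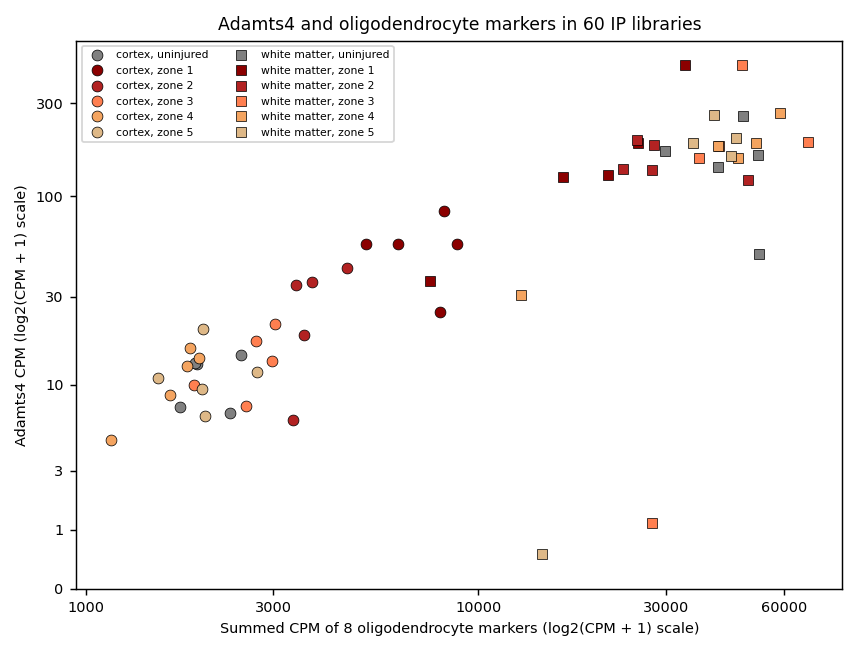
Adamts4 level against the summed CPM of 8 oligodendrocyte markers in the 60 IP libraries of uninjured tissue and stroke zones 1 to 5; circles are cortex, squares are white matter, and both axes are on a log2(CPM + 1) scale. Most cortex libraries lie low on both axes and most white matter libraries high, and the 5 cortex zone 1 libraries have the highest cortex marker sums, 5168 to 8838 CPM, with Adamts4 at 24.9 to 83.6 CPM.

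The wider protease network was read from 5 lists of other genes. In cortex zone 1, 5 of these 61 genes (27 tested) rose and 0 fell. Of all 12526 genes tested there, 4.81% were called higher and 5.3% in either direction. None of 18 other MMPs (4 tested) and none of 16 other ADAMTS genes (6 tested) was called, while 1 of 8 ADAM genes, 2 of 7 genes of the plasminogen system and 2 of 12 other regulators rose. These were Adam17, which sheds TNF and is inhibited by TIMP3 (log2 fold change 2.15 ± 0.48, edgeR adjusted p = 0.00918), Plat, the tissue plasminogen activator (1.70 ± 0.45, adjusted p = 0.0302), and its inhibitor Serpine2 (1.08 ± 0.28, adjusted p = 0.0271). A2m, the broad protease inhibitor alpha-2-macroglobulin, rose by 6.26 ± 0.75 (adjusted p = 2.19e-05), more than any of the 10 members, and Lrp1, its receptor, rose by 0.75 ± 0.17 (adjusted p = 0.0103). In cortex zone 2 A2m rose by 5.43 ± 0.59, Mmp19 by 1.78 ± 0.50 and Lrp1 by 0.59 ± 0.14, 3 of the 26 list genes tested, where 3.12% of all genes rose. In cortex zones 3 to 5 and in all 5 white matter zones no gene of the 5 lists passed, where 0% to 0.941% of all genes did. In the zones 1 to 3 cohort of cortex A2m rose by 4.57 ± 0.72, 1 of the 23 list genes tested, where 0.232% of all genes were called.

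Over zones 1 to 5 of cortex 13 of these 61 genes (34 tested) fell and 3 rose, where 13.7% of all genes fell and 19.6% were called in either direction. A2m fell by 1.89 ± 0.16 per zone step (edgeR adjusted p = 2.67e-11), and Thbs1, the matrix protein thrombospondin-1, fell by 1.69 ± 0.25. Lrp1 fell by 0.23 ± 0.03, Plat by 0.46 ± 0.08 and Adam17 by 0.48 ± 0.09. Adamts18, by contrast, rose by 0.93 ± 0.25 per step (adjusted p = 0.00595), as did Spock1, a testican, by 0.09 ± 0.03 and the membrane-bound Mmp17 by 0.15 ± 0.05. Between IP and input in uninjured cortex, Bsg, which induces MMPs and is also called EMMPRIN, was higher in IP by 2.76 ± 0.31, Lrp1 by 1.94 ± 0.24, Mmp17 by 1.79 ± 0.39 and the testican Spock2 by 1.60 ± 0.26 on the log2 scale. Adam17 was lower in IP there (-2.72 ± 0.65, edgeR adjusted p = 0.00552).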

How the data were processed

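The authors deposited 1 table of raw read counts per gene for 82 libraries, with no further normalization in the values. Per the labels' protocols, brains were perfused with paraformaldehyde, tissue was laser-captured, ribosomes were immunoprecipitated, and libraries were made from amplified cDNA (NuGEN Ovation RNA-Seq V2, KAPA Hyper Prep) and read as 50-bp pairs on a HiSeq instrument. Per the submitters' processing notes the build was GRCm38 (mm10). The aligner and counter were not given in the sources used here, nor was the use of strand. Reads were amplified and carry no molecular identifiers, so limits for 0 counts cover counting error only.

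Columns were matched to sample titles by their codes for region, stroke zone, fraction and replicate, and 48349 of the 48795 IDs carried a symbol. Across 152 pairs of replicates chi-square divided by its degrees of freedom was never below 3.16, so no library was treated as a duplicate. The 6 genes listed in the report were removed before library sizes were taken. Each comparison used only its own groups, except the zone trend (25 libraries, zone number as a term) and the region difference (20 libraries). Genes passed edgeR's filter at a minimum count of 10 (total 15), counts were scaled by TMM and tested with the edgeR 4.0.16 robust quasi-likelihood test in R 4.3.3, and p-values were adjusted by Benjamini-Hochberg over all genes tested, with a threshold of 0.05. Standard errors were obtained from each log2 fold change and its F statistic (size over root F). Scripts were tested on simulated data. Levels are CPM outside the 6 genes, given as mean ± SD; marker sums were compared by 2-sided exact permutation tests.

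The alternatives were size factors by relative log expression (RLE), DESeq2 1.42.0, no low-count filter, the 6 genes kept, a replicate block, all 6 IP groups of a region in 1 fit, CPM over all counts or over TMM-scaled library sizes, each library left out and the 5 libraries of low depth or few detected genes left out, and, added later, each zone left out of the trend. Same-numbered libraries do not share an animal or batch by any label, and their deviations were correlated between -0.173 and 0.153, so no main fit is paired. Same-numbered IP and input libraries may still come from the same sample, which the main fits do not use. The replicate block allows for such a pairing. The 10 members and all lists were chosen with earlier results of these data known. All members are named; fold changes with errors are given for those that passed or had an absolute log2 fold change of at least 1, with a few others given because their groups did not overlap, and other genes of the lists are named only where called, up to 6 per direction. RefSeq promoters of GRCm38.p6 covered 7 members. Some overlapping and list genes are not reported here.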

Additional observations from a re-analysis of the deposited data

Results flagged for a closer look

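In each group of 5 libraries, the highest or lowest level of a member was set against the rest by Dixon's ratio, which marks about 1 in 20 groups by chance. It marked 22 of 140 groups, 6 in cortex and 16 in white matter, and no explanation was weighed for any of them. For the inhibitors in white matter, Timp3 stood apart in zone 2 replicate 4 (295 CPM), zone 3 replicate 1 (3609 CPM), zone 4 replicate 3 (433 CPM) and uninjured IP replicate 5 (173 CPM). Timp2 stood apart in white matter zone 2 replicate 2 (602 CPM) and Timp4 in white matter zone 3 replicate 4 (232 CPM) and cortex zone 1 replicate 1 (76.9 CPM). Timp1, mostly at 0 in white matter, had 5.16 CPM in zone 3 replicate 2, 0.320 CPM in zone 5 replicate 2 and 4.04 CPM in uninjured IP replicate 1.

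Among the proteases, Mmp2 had 4.39 CPM in cortex zone 4 replicate 1, 0.557 CPM in cortex zone 5 replicate 5, 4.02 CPM in white matter zone 2 replicate 4 and 13.7 CPM in white matter zone 4 replicate 1, on 10, 3, 9 and 33 counts in that order. Mmp14 had 31.2 CPM in cortex uninjured input replicate 1 and 32.2 CPM in white matter zone 3 replicate 3, and Mmp16 had 87.8 CPM in cortex zone 4 replicate 5. Adamts1 had 54.1 CPM in the same cortex uninjured input replicate 1 and 92.7 CPM in white matter zone 4 replicate 4. Adamts9 had 45.4 CPM in white matter zone 3 replicate 4, 36.2 CPM in zone 4 replicate 4 and 80.6 CPM in zone 5 replicate 1.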

How the results depend on the processing

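Of 406 recomputed counts of members called, 381 kept within 1.5 times the main count. In most comparisons the main count was 0, and a count that stayed at 0 was taken as kept, which says little about the calls. Of 1126 recomputed fold changes of named members 1051 kept their direction and their side of the threshold, 46 lost the call, 21 gained it and 8 reversed. The cause was not tested in any of these. In cortex zone 2 (1 member) the count was 2 with RLE size factors, 2 in DESeq2, 2 without the low-count filter, 2 with the 6 abundant genes kept, 0 with a replicate block, and 0 to 2 with 1 library left out. In white matter it was 1 in zone 1 in DESeq2 and 1 without the libraries of low depth or few genes, 1 in zone 2 in DESeq2 and 1 in zone 3 without the filter, each against 0. For cortex zones 1 to 3, IP against input, the 2 calls became 1 with a replicate block and 1 to 3 with 1 library left out; for uninjured cortex IP against input 1 became 1 to 2. Between the uninjured regions 2 became 4 in DESeq2 and 2 to 4 with 1 library left out. The cortex trend of 7 became 2 with zone 1 left out, chosen after seeing the data, and 5 to 8 with 1 library left out. The region difference in zone 1 became 2 without those libraries and 0 to 1 with 1 library left out, and in zone 2 0 to 1. Cortex zone 1 gave 3 to 5. With the replicate block Adamts1 in cortex zone 2 was 1.59 (edgeR adjusted p = 0.0608) and Adamts4 in cortex zones 1 to 3, IP against input, 1.97 (0.0687). Direction reversed for Timp4 in white matter zone 3 (-1.93 with the block, -2.55 without replicate 4, and -2.55 to 2.07 over all libraries left out in turn), and, without replicate 3 of white matter zones 1 to 3 IP, for Timp4 (range over libraries left out -0.37 to 2.64), Adamts1 (-0.76 to 1.76) and Adamts9 (-0.69 to 2.21, and -0.10 with the block) against uninjured tissue and for Timp4 against input (-0.52 to 2.51). It also reversed for the zone 1 region difference of Timp1 without white matter uninjured replicate 1 (-0.17 to 2.57). Depth limits the rare members most: Timp1, Mmp2 and Mmp14 were often untested, and in white matter the spread between libraries was wide. Counts over all genes moved more than those of the members, most in white matter: zone 1 gave 47 as reported, 560 in DESeq2, 582 without the filter and 410 without those libraries; zone 2 gave 99, against 594 in DESeq2 and 527 without the filter; and the white matter trend gave 266, against 3386 without the filter, 6 with the replicate block and 0 with zone 1 left out. In cortex, zone 1 gave 664, against 2182 with all IP groups in 1 fit, zone 2 gave 426, against 700 without the filter, and uninjured IP against input gave 2858, against 7838 without the filter.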

Other observations

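Between uninjured regions, some other genes of the protease lists differed, at a share near that of all genes. Adam33, a membrane-bound ADAM, was higher in cortex than in white matter by 6.69 ± 1.05 on the log2 scale (edgeR adjusted p = 0.000199), Adamts3, a procollagen peptidase, by 4.07 ± 0.99 (adjusted p = 0.00584) and Mmp17 by 3.62 ± 0.60 (adjusted p = 0.000315). Adam17 was lower in cortex (-2.77 ± 0.47, adjusted p = 0.000403), as was Adamts2 (-2.61 ± 0.66, adjusted p = 0.00778). Of the 61 genes on these lists 4 were higher and 4 lower in cortex, with 26 tested, in a comparison that called 27.5% of all genes. The response of Mmp17 to stroke in zone 1 also differed between regions, with cortex minus white matter at -3.99 ± 0.99 (edgeR adjusted p = 0.0326), the single call among the 35 list genes tested there.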
